A study of Homo sapiens with 48 samples.

Results

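Secreted proteases and their inhibitors were followed in a pooled CRISPR knockout screen of human squamous carcinoma cell lines. The 7 genes described were taken by name from the 327 genes measured. They are 5 proteases, MMP1, MMP10, PLAU, PRSS23 and CTSV, and 2 tissue inhibitors of metalloproteinases, TIMP1 and TIMP3. All 7 were present in each table, and none was removed by a filter on low values. The rule uses gene names and no measured value, but the genes were proposed with earlier results of these data known.

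In such a screen each cell carries a guide RNA that directs the Cas9 nuclease to 1 gene, and the guide serves as a barcode that is counted in genomic DNA. The lines were A431 (vulvar epidermoid carcinoma), CAL27 (tongue carcinoma) and SCC13 (skin carcinoma), each made to express Cas9 from a pLEX_Cas9 lentivirus under blasticidin selection. The guide pool was delivered at low multiplicity and selected with puromycin, so all groups share the Cas9 insertion and both drug treatments. Of 48 samples, 10 were initial cells and 38 were later cells, 4 of them cultures and 34 tumors. Cultures of A431 (n = 2) and CAL27 (n = 2) had grown for 3 weeks. Tumors were grown in Matrigel in the rear flanks of immunodeficient mice for about 2 months, A431 (n = 8) and CAL27 (n = 10) in SHO mice and SCC13 (n = 16) in NOD.Cg-Prkdcscid Il2rgtm1Wjl/SzJ mice. The mouse strain therefore cannot be told apart from the line where SCC13 is compared with the others. The age of the mice was not given in the labels, and the mouse tissue around a tumor carried no guides. SCC13 had no culture table among the files.

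Matrix metalloproteinases are zinc enzymes that cut extracellular matrix. MMP1 is the interstitial collagenase, which cleaves fibrillar collagen, and MMP10 is stromelysin-2, which cleaves a wider range of matrix proteins and can activate other metalloproteinases. PLAU is urokinase, the serine protease that turns plasminogen into plasmin. PRSS23 is a secreted serine protease, and CTSV is cathepsin V, a lysosomal cysteine protease of epithelia that can also be secreted. TIMP1 is a soluble inhibitor of metalloproteinases that also has growth-promoting activity through the cell surface, whereas TIMP3 is held in the matrix and also inhibits ADAM proteases. In a pool, cells without a secreted protein grow beside cells that still make it, and the part of this in the values below was not tested.

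Values are log fold changes of each knockout against the initial cells of its line and setting, in log units because the log base is not given. Negative values are read as loss of the knockout. Every value was set relative to the median gene of its tumor or culture, so 0 means that a knockout behaved like the median of the library. As deposited, 0 was the level of the non-targeting guides, which cut no gene. On that scale the cultures had their median gene at -0.37 to -0.36 (A431) and -0.49 to -0.47 (CAL27), and the tumors at -0.55 to -0.07 (A431), -1.50 to -0.56 (CAL27) and -2.67 to 0.53 (SCC13). The highest of these was value column 3 of SCC13, the only SCC13 tumor with its median gene above the non-targeting guides. The standard deviation over genes was 0.50 to 0.51 in the A431 cultures and 0.57 to 0.59 in the CAL27 cultures. In tumors it was 0.42 to 1.34 in A431, 1.09 to 2.23 in CAL27 and 1.89 to 2.87 in SCC13. The tables hold no read counts, so the depth behind a value is unknown. In SCC13, 101 of 120 pairs of tumors had a step between their values that groups of genes shared exactly. Such values are called floor values here, and they held 8 to 145 genes per tumor. Whether they stand for genes without reads cannot be checked without counts. Of the 7 genes, TIMP1 had floor values in 8 SCC13 tumors, CTSV in 5, PLAU in 4 and MMP10 in 2, and no member had any in A431 or CAL27.

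Loss of TIMP1 and loss of TIMP3 went with opposite changes in SCC13 tumors: TIMP1 knockouts fell and TIMP3 knockouts rose relative to the median gene. PRSS23 knockouts also rose in SCC13 tumors, and TIMP1 knockouts fell in A431 tumors. No member passed the test in CAL27 tumors or in the cultures of either line. MMP1, MMP10, PLAU and CTSV knockouts passed the test in no group on this scale. By limma with Benjamini-Hochberg adjustment over the 327 genes at 0.05, 1 of 7 members was lower and 0 of 7 were higher in A431 tumors, against 11.9% and 7.95% of all genes (19.9% in either direction). In CAL27 tumors 0 of 7 members passed by limma, against 22% of all genes lower and 18.7% higher (40.7% in all), with 1 member at an unadjusted p under 0.05 and 0 passing the adjusted exact sign-flip test. In SCC13 tumors 1 of 7 was lower and 2 of 7 were higher, against 23.9% and 23.5% of all genes and 47.4% in either direction. In A431 cultures 0 of 7 passed by limma, against 11.3% lower and 2.14% higher, and in CAL27 cultures 0 of 7, against 18.7% lower and 4.89% higher, with 0 members at an unadjusted p under 0.05 in either line. These counts are near or under the shares of the library as a whole. Set against the non-targeting guides instead, 1 of 7 members was lower in A431 tumors (22.3% of all genes), 3 in CAL27 tumors (50.2%), 5 in SCC13 tumors (67.3%), 3 in A431 cultures (41.6%) and 6 in CAL27 cultures (89.6%), by limma. On that scale no member rose in SCC13 tumors, where 3.98% of all genes did. The members' median lay at 0.23 in tumors of A431, 0.24 in those of CAL27 and 0.48 in those of SCC13, where the median over all gene means lay at 0.02, 0.01 and -0.02. All p-values rest on the variation among the tumors or cultures of a group. Whether tumors came from separate mice, and cultures from separate flasks, is not in the labels, so that variation may be partly technical, and the error of the initial cells enters no test.

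**Figure D1:**
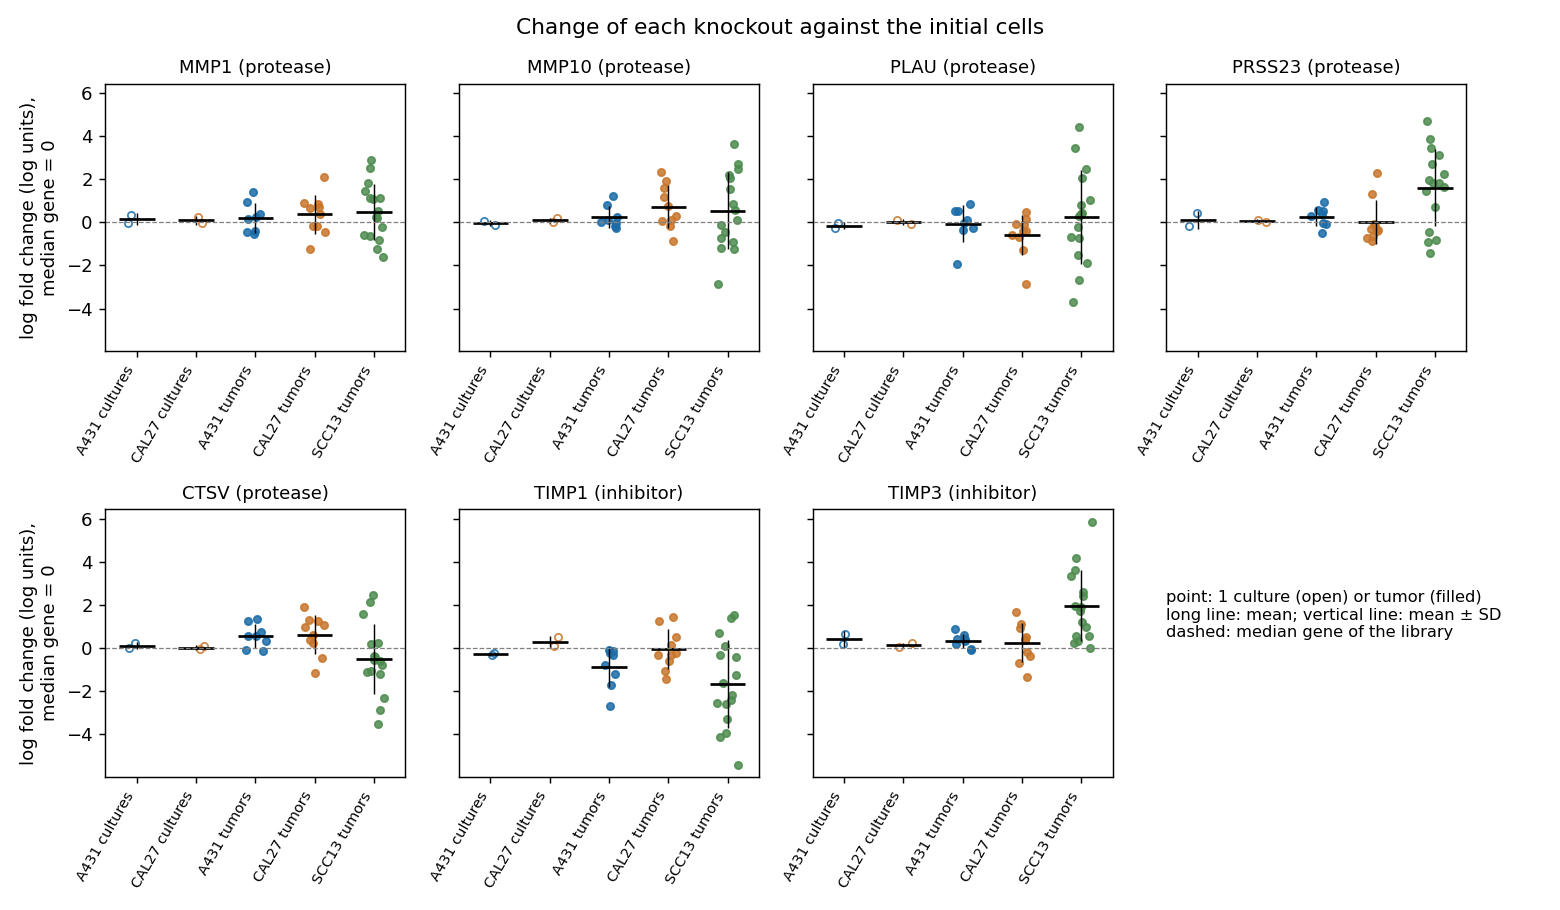
Log fold change of the 7 knockouts in each culture (open points, n = 2 per line) and each tumor (filled points, n = 8, 10 and 16) against the initial cells, in log units with the median gene at 0. Long lines are means and vertical lines are mean ± SD. The SCC13 tumors spread most widely, all 16 TIMP3 points of SCC13 lie above 0, and all 8 TIMP1 points of A431 tumors lie below 0.

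**Figure D2:**
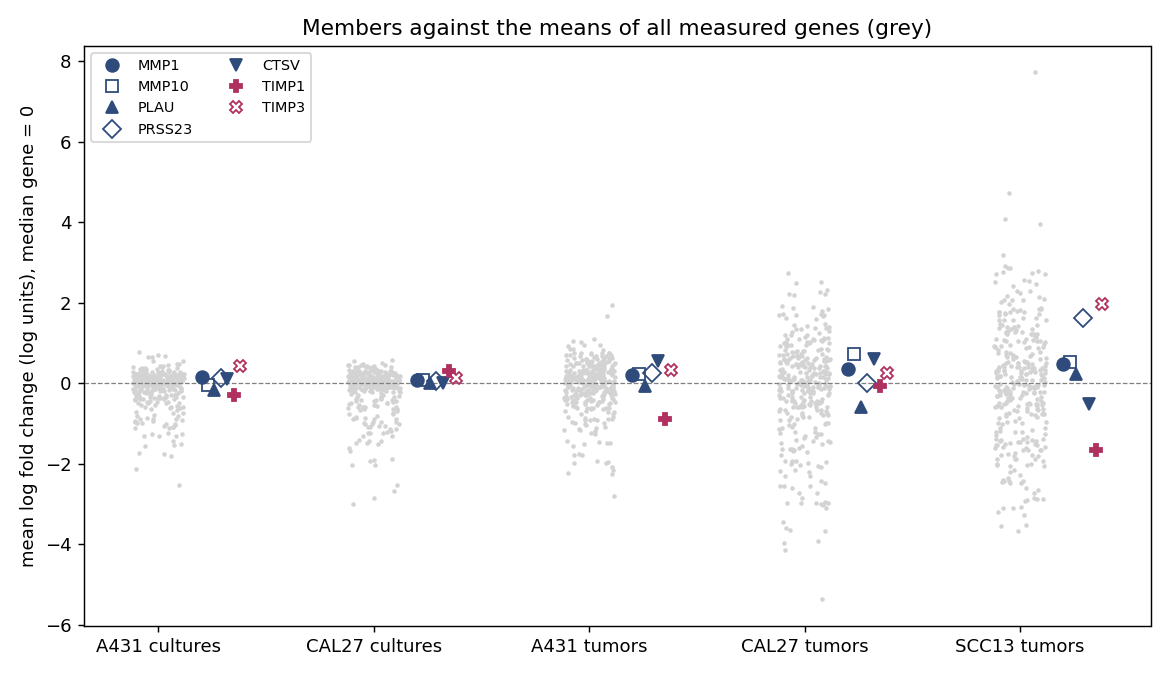
Mean log fold change (log units, median gene at 0) of the 5 proteases (blue) and 2 inhibitors (red) beside the means of all 327 genes (grey) in the 5 groups. TIMP1 is the lowest member in A431 tumors (-0.89) and SCC13 tumors (-1.65), while TIMP3 is the highest member in SCC13 tumors (1.96).

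Collagenase MMP1 knockouts passed in no group relative to the median gene. The values were -0.05 and 0.35 in the A431 cultures and -0.05 and 0.23 in the CAL27 cultures. In tumors they ran from -0.56 through a median of 0.19 to 1.38 in A431, from -1.22 through 0.51 to 2.12 in CAL27 and from -1.61 through 0.37 to 2.87 in SCC13. Tumors of each line lay on both sides of the median gene, and those of A431 and CAL27 also on both sides of their cultures. The mean was 0.21 ± 0.70 (SD, n = 8) in A431, 0.36 ± 0.91 (SD, n = 10) in CAL27 and 0.48 ± 1.31 (SD, n = 16) in SCC13 tumors, and limma gave adjusted p-values of 0.579, 0.389 and 0.395. In SCC13 the spread of MMP1 over tumors was among the narrow ones, ranking 26 of 327 genes from the smallest standard deviation, where the median gene had 1.79. Against the non-targeting guides the SCC13 mean of MMP1 was -1.14 (n = 16, limma adjusted p = 0.0274).

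Stromelysin-2, the product of MMP10, had the largest mean among the members in CAL27 tumors without passing the test. Cultures of A431 held its knockouts at -0.12 and 0.05, those of CAL27 at 0.18 and -0.01. In CAL27 tumors they ran from -0.85 through a median of 0.52 to 2.34, with 8 of 10 tumors above the median gene. The CAL27 mean was 0.73 ± 1.01 (SD, n = 10, limma adjusted p = 0.0943), and it passed once value column 3 was left out (limma adjusted p = 0.0382). A431 tumors ran from -0.27 through 0.05 to 1.20 (mean 0.23 ± 0.51, SD, n = 8, limma adjusted p = 0.458). SCC13 tumors ran from -2.86 through 0.34 to 3.64 (mean 0.54 ± 1.78, SD, n = 16, limma adjusted p = 0.365). In both of these lines the tumors lay on either side of the median gene, and against the non-targeting guides the SCC13 mean was -1.08 ± 1.63 (SD, n = 16, limma adjusted p = 0.0381). MMP10 and MMP1 are direct neighbours in the RefSeq annotation, with 0 coding genes between them. In each line MMP10 lay below MMP1 in some tumors and above it in others.

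Urokinase knockouts (PLAU) passed in no group relative to the median gene, and their tumors lay on both sides of it in each line. The values were -0.28 and -0.05 in the A431 cultures and 0.09 and -0.09 in the CAL27 cultures. A431 tumors ran from -1.92 through a median of 0.04 to 0.85, and CAL27 tumors from -2.85 through -0.41 to 0.49. In A431 the lowest tumor, value column 7, stood apart by Dixon's ratio of gap to range (0.571, critical value 0.526). Value column 6, the lowest in CAL27, was at the edge of that threshold (0.466, critical value 0.466). The CAL27 mean of -0.58 ± 0.94 (SD, n = 10) rested on 8 of 10 tumors below the median gene and did not pass (limma adjusted p = 0.168). Relative to the non-targeting guides, PLAU knockouts lay lower in 10 of 10 CAL27 tumors, at a mean of -1.39 ± 1.15 (SD, n = 10, limma adjusted p = 0.00364). The mean relative to the median gene was -0.07 ± 0.85 (SD, n = 8, limma adjusted p = 0.865) in A431 tumors. In SCC13 tumors PLAU ran from -3.69 through 0.34 to 4.43, the widest range among the proteases, with a mean of 0.24 ± 2.17 (SD, n = 16, limma adjusted p = 0.719). The SCC13 mean turned to -1.38 ± 2.24 (SD, n = 16, limma adjusted p = 0.0141) against the non-targeting guides.

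Of the 5 proteases, PRSS23 alone passed relative to the median gene, in SCC13 tumors. There they ran from -1.43 through a median of 1.82 to 4.67, and 12 of 16 tumors lay above the median gene. Their mean was 1.61 ± 1.80 (SD, n = 16), with a 95% interval from 0.70 to 2.52 (limma adjusted p = 0.00233). Against the non-targeting guides the same tumors split evenly, with 8 below and 8 above and a mean of -0.01 ± 1.36 (SD, n = 16, limma adjusted p = 0.989). The SCC13 gain of PRSS23 was thus measured against other knockouts and was not detected against guides that cut no gene. Without value column 3 the mean over the median gene was 1.78. In CAL27 tumors PRSS23 ran from -0.87 through -0.32 to 2.30, with 8 of 10 below the median gene and 2 high tumors, and had a mean of 0.01 ± 1.01 (SD, n = 10, limma adjusted p = 0.978). A431 tumors ran from -0.48 through 0.34 to 0.96 around a mean of 0.27 ± 0.45 (SD, n = 8, limma adjusted p = 0.376). The cultures stood at 0.42 and -0.17 in A431 and at 0.12 and 0.01 in CAL27, on both sides of the median gene in A431 and above it in CAL27.

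Cathepsin V knockouts (CTSV) lay above the median gene in most A431 and CAL27 tumors and below it in most SCC13 tumors, and passed in none. They ran from -0.13 through a median of 0.54 to 1.34 in A431 tumors, with 6 of 8 above. The mean there was 0.56 ± 0.54 (SD, n = 8, limma adjusted p = 0.0722). CAL27 tumors ran from -1.16 through 0.79 to 1.90, with 8 of 10 above and a mean of 0.61 ± 0.90 (SD, n = 10, limma adjusted p = 0.14). In SCC13 they ran from -3.52 through -0.56 to 2.44, with 11 of 16 below and a mean of -0.51 ± 1.64 (SD, n = 16, limma adjusted p = 0.382). Relative to the non-targeting guides, CTSV knockouts were lower in 14 of 16 SCC13 tumors, at a mean of -2.13 ± 1.62 (SD, n = 16, limma adjusted p = 8.5e-05). The cultures held them at -0.0001 and 0.22 in A431 and at -0.07 and 0.10 in CAL27, close to the median gene throughout.

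Relative to the median gene, TIMP1 knockouts fell in the tumors of A431 and SCC13 and did not pass in those of CAL27. In A431 tumors the 8 values ran from -2.67 through a median of -0.56 to -0.09, and 8 of 8 lay below the median gene. The A431 mean was -0.89 ± 0.93 (SD, n = 8), with a 95% interval from -1.49 to -0.29 (limma adjusted p = 0.0406), the 35th lowest of 327 genes. This call was at the edge of the threshold: it was lost without value column 1, 2, 4, 6 or 7 (limma adjusted p = 0.0506, 0.0781, 0.0669, 0.0852 and 0.0825), and without column 2 the mean was -0.64. The exact two-sided sign-flip test gave p = 0.00781, the smallest it can give with 8 tumors, and an adjusted p of 0.0655, in a test that called 0 of all genes in this group. Against the non-targeting guides TIMP1 was lower in 8 of 8 A431 tumors as well, at -1.17 ± 0.87 (SD, n = 8, limma adjusted p = 0.00639).

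In SCC13 tumors TIMP1 ran from -5.40 through a median of -1.90 to 1.52, and 12 of 16 lay below the median gene. The mean was -1.65 ± 2.03 (SD, n = 16), with a 95% interval from -2.58 to -0.73 (limma adjusted p = 0.00225). Against the non-targeting guides it was lower in 14 of 16, at -3.27 ± 2.54 (SD, n = 16, limma adjusted p = 1.53e-07). In 8 of the 16 tumors TIMP1 had a floor value, and all 8 of these lay below the median gene. With them left out the mean was -0.27 (limma adjusted p = 0.777), so the call was lost. Floor values were picked by shared steps and not by being low. Those of TIMP1 ran from -5.40 (value column 2) to -0.32 (value column 3). Without value column 3 the mean was -1.74. CAL27 tumors ran from -1.43 through -0.26 to 1.44, on both sides of the median gene, with a mean of -0.06 ± 0.92 (SD, n = 10, limma adjusted p = 0.891). Against the non-targeting guides TIMP1 was lower in CAL27 tumors as well, in 8 of 10, at -0.88 ± 1.16 (SD, n = 10, limma adjusted p = 0.0454). The cultures stood at -0.34 and -0.23 in A431 and at 0.49 and 0.11 in CAL27, below the median gene in the first line and above it in the other, without passing by limma (adjusted p = 0.177 and 0.187).

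TIMP3 knockouts rose in SCC13 tumors. They ran from 0.0043 through a median of 1.83 to 5.86, and 16 of 16 tumors lay above the median gene. Their mean was 1.96 ± 1.64 (SD, n = 16), with a 95% interval from 1.07 to 2.86 (limma adjusted p = 0.000197), the 29th highest of 327 genes. The exact two-sided sign-flip test gave 3.05e-05, the smallest value it can give with 16 tumors. As with PRSS23, the gain was measured against other knockouts: relative to the non-targeting guides 8 tumors lay above and 8 below, at a mean of 0.34 ± 1.51 (SD, n = 16, limma adjusted p = 0.525). Without value column 3 the mean over the median gene was 2.01. A431 tumors ran from -0.09 through 0.37 to 0.88 with 6 of 8 above the median gene, a mean of 0.34 ± 0.32 (SD, n = 8) and a limma adjusted p of 0.208. CAL27 tumors ran from -1.35 through 0.41 to 1.66, with a mean of 0.24 ± 0.90 (SD, n = 10, limma adjusted p = 0.587). The A431 cultures stood at 0.17 and 0.67 and the CAL27 cultures at 0.06 and 0.22, all above the median gene but not past the threshold (limma adjusted p = 0.187 and 0.277).

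Proteases were next set against inhibitors within each tumor. The mean of the 5 proteases exceeded the mean of the 2 inhibitors in 8 of 8 A431, 3 of 10 CAL27 and 9 of 16 SCC13 tumors. Over all tumors of a line, the difference averaged 0.52 ± 0.59 (SD, n = 8) in A431 and 0.14 ± 0.69 (SD, n = 10) in CAL27. In SCC13 it averaged 0.32 ± 1.57 (SD, n = 16). In cultures the difference was 0.08 and -0.14 in A431 and -0.22 and -0.12 in CAL27. The class means hide the split between the inhibitors. With TIMP1 left out, the difference turned to -0.10 in A431 tumors and -1.49 in SCC13 tumors, and with TIMP3 left out it was 1.13 and 2.13. Since the genes were chosen with earlier results known, no test is given for these class means.

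Within single tumors, TIMP1 lay below TIMP3 in 8 of 8 A431, 14 of 16 SCC13 and 5 of 10 CAL27 tumors. Over all tumors of a line, TIMP1 minus TIMP3 averaged -1.23 ± 1.06 (SD, n = 8) in A431 and -3.62 ± 2.83 (SD, n = 16) in SCC13. In CAL27 the average was -0.31 ± 1.46 (SD, n = 10). The A431 cultures had TIMP1 below TIMP3 by -0.50 and -0.90, whereas the CAL27 cultures gave 0.43 and -0.11. TIMP1 was the lowest of the 7 members in 4 of 8 A431, 1 of 10 CAL27 and 8 of 16 SCC13 tumors, and TIMP3 was the highest in 0, 1 and 6. TIMP1 was therefore the lower inhibitor in each A431 sample and in most SCC13 tumors, although in 2 A431 tumors, value columns 5 and 6, both inhibitors lay below the median gene. In 8 of the 16 SCC13 tumors the TIMP1 value was a floor value. The part of these values in the SCC13 counts and average was not tested.

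**Figure D3:**
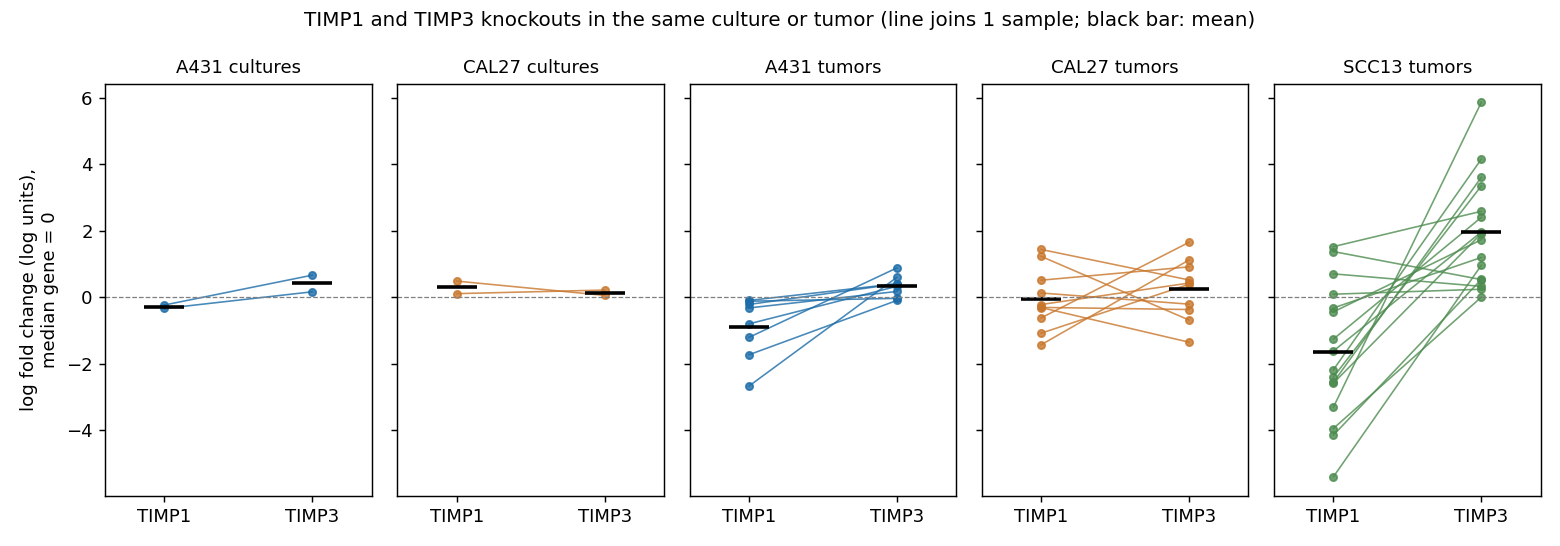
TIMP1 and TIMP3 knockouts in the same culture or tumor (lines join 1 sample), in log units with the median gene at 0, and group means as black bars. Lines climb from TIMP1 to TIMP3 in 8 of 8 A431 tumors and 14 of 16 SCC13 tumors but in 5 of 10 CAL27 tumors. In 8 of the 16 SCC13 tumors TIMP1 had a floor value.

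Tumors were compared with cultures to ask whether loss of a secreted protein counted for more in the tumor than in the dish. No member passed in either line. Across the library 0% of genes passed by limma in A431 and 0% in CAL27, with 20 and 30 genes and 0 members at an unadjusted p under 0.05. With each setting given its own spread, limma called 5.5% of all genes lower and 6.73% higher in A431, 15% and 17.7% in CAL27, and 0 members in either line. In A431 the farthest member was TIMP1, whose tumors averaged -0.89 and whose cultures averaged -0.28. Their difference was -0.61 (SE 0.60, 95% interval -1.89 to 0.67, limma adjusted p = 0.962), and 4 tumors lay below both cultures while 3 lay above both. CTSV differed by 0.45 (interval -0.48 to 1.38, limma adjusted p = 0.957), with 6 of 8 A431 tumors above both cultures. The other A431 differences lay between -0.08 for TIMP3 and 0.26 for MMP10.

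In CAL27 the farthest was MMP10, at 0.73 in tumors and 0.09 in cultures, a difference of 0.64 (SE 0.77, interval -0.97 to 2.25, limma adjusted p = 0.908). CTSV differed by 0.59 (interval -0.93 to 2.12), with 8 of 10 tumors above both cultures. PLAU differed by -0.58 (interval -2.13 to 0.97), with 7 of 10 tumors below both cultures, and PRSS23 by -0.06, with 8 of 10 below both and 2 far above. MMP1 (0.27), TIMP1 (-0.36) and TIMP3 (0.11) made up the rest. The intervals of all members in both lines span 0, and even the narrowest, that of TIMP3 in A431, ran from -0.87 to 0.71, so these fits with 2 cultures do not show that tumors and cultures were alike. The standard deviation over tumors was 3.46 to 12.4 times that over cultures for the members in CAL27, and 0.91 (TIMP3) to 12.5 (TIMP1) times in A431. A standard deviation of 2 cultures is itself poorly known.

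Lines were compared through their cultures and through their tumors, and the comparisons share samples. Between the cultures no member passed by limma, against 2.75% of genes lower and 0.306% higher in CAL27 than in A431. TIMP1 came nearest, higher in CAL27 by 0.58 (SE 0.17, interval 0.18 to 0.99, unadjusted p = 0.0124, limma adjusted p = 0.121), and both CAL27 cultures lay above both A431 cultures.

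TIMP3 and PRSS23 were the members whose tumors differed between lines, with SCC13 highest for each. In the F test over tumors of the 3 lines, 2 of 7 members passed, TIMP3 (F = 6.38, limma adjusted p = 0.0167) and PRSS23 (F = 4.70, limma adjusted p = 0.0472), against 26.6% of all genes. TIMP3 was higher in SCC13 than in A431 by 1.63 (SE 0.59, interval 0.45 to 2.81, limma adjusted p = 0.0386), and higher than in CAL27 by 1.72 (SE 0.55, interval 0.62 to 2.82, limma adjusted p = 0.0206). PRSS23 was higher in SCC13 than in CAL27 by 1.60 (SE 0.57, interval 0.46 to 2.74, limma adjusted p = 0.0401). Its difference of 1.35 from A431 did not pass (interval 0.12 to 2.57, limma adjusted p = 0.125). In all, 1 of 7 members was higher in SCC13 than in A431, against 10.4% of genes, and 0 were lower, against 10.7% (21.1% in either direction). Against CAL27, 2 of 7 were higher, where 9.79% of genes were, and 0 were lower, where 7.95% were (17.7% in either direction). Values of the 3 lines overlapped for both genes. For TIMP3 the lowest SCC13 tumors lay within the range of the others. For PRSS23 the lowest SCC13 tumor (-1.43) lay below the lowest of A431 (-0.48) and of CAL27 (-0.87).

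These line differences depend on the reference and on the scaling of the columns. Relative to the non-targeting guides the TIMP3 difference was 0.28 against A431 and 0.91 against CAL27, neither past the threshold, and PRSS23 was lost too. With each column divided by its standard deviation over genes, the F test no longer called TIMP3 (limma adjusted p = 0.0725) or PRSS23 (limma adjusted p = 0.135). TIMP3 against A431 (limma adjusted p = 0.275) and PRSS23 against CAL27 (limma adjusted p = 0.0831) were lost as well, while TIMP3 against CAL27 still passed (limma adjusted p = 0.0458). On the non-targeting scale 2 of 7 members, CTSV and TIMP1, were lower in SCC13 than in A431 (37% of all genes) and than in CAL27 (20.8%), CTSV by -2.42 against A431 (limma adjusted p = 0.00173) and -1.93 against CAL27 (limma adjusted p = 0.0107), TIMP1 by -2.10 (limma adjusted p = 0.0246) and -2.40 (limma adjusted p = 0.00944). On the median-gene scale TIMP1 differed from CAL27 by -1.59 (SE 0.61, interval -2.80 to -0.38, limma adjusted p = 0.0559) and CTSV by -1.12 (interval -2.23 to -0.02, limma adjusted p = 0.147). Leaving out single tumors, of any of the lines, ended the PRSS23 call of the F test in 27 of 34 fits (limma adjusted p up to 0.0987, without value column 11 of SCC13). It ended the PRSS23 difference from CAL27 in 14 (up to 0.0752, without the same column) and the TIMP3 difference from A431 in 11 (up to 0.0765, likewise). The TIMP3 difference from CAL27 was lost in 1, without value column 4 of CAL27 (limma adjusted p = 0.0523). Between CAL27 and A431 tumors no member passed by limma, against 3.06% of genes lower and 0.306% higher (3.36% in all), and 0 members had an unadjusted p under 0.05. The intervals of that comparison were wide, from -0.59 to 2.25 for TIMP1 (difference 0.83) and from -1.96 to 0.95 for PLAU (difference -0.51).

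**Figure D4:**
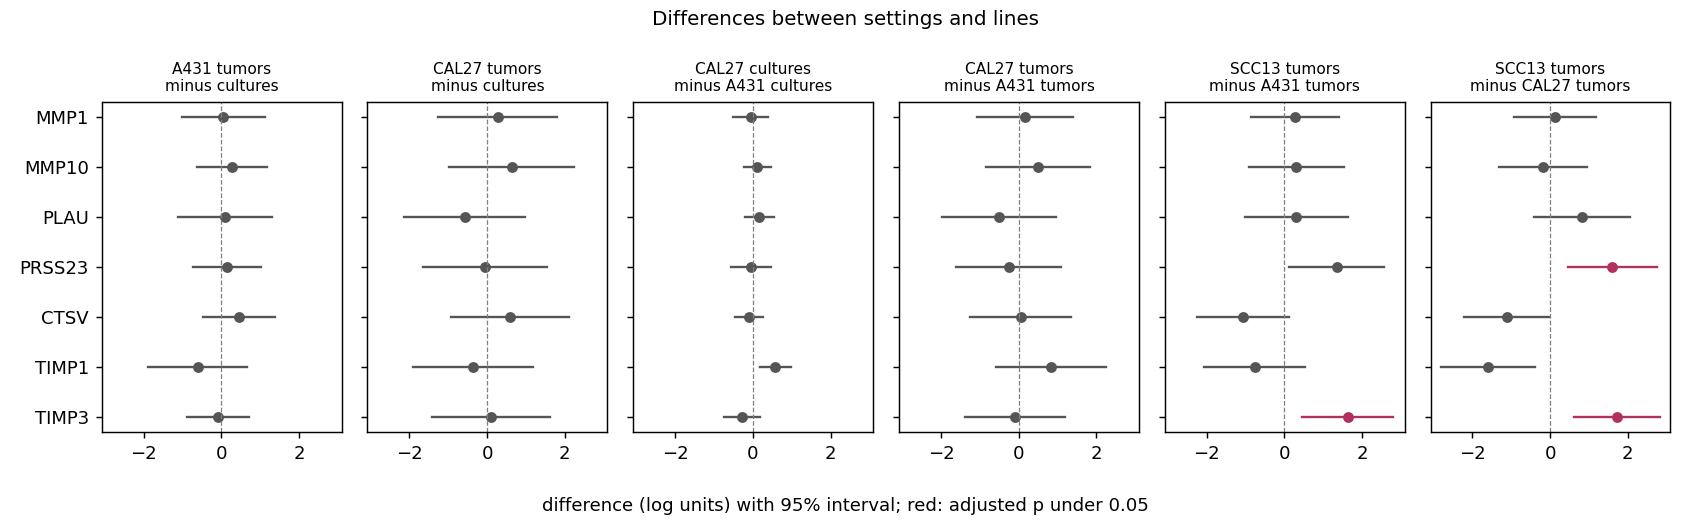
Differences between settings and between lines for the 7 knockouts, in log units, with 95% intervals from the limma fits and red for adjusted p under 0.05. TIMP3 passes in SCC13 against A431 (1.63) and against CAL27 (1.72), PRSS23 in SCC13 against CAL27 (1.60), and no member passes in the other 4 comparisons.

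The other genes of protease pathways in the library were counted from 7 lists, of which few members were measured. Their rises and falls are relative to the median gene, and the lists were not tested against the non-targeting guides. On that other scale limma called 2.14%, 5.5% and 3.98% of all genes higher in A431, CAL27 and SCC13 tumors. In cultures it called 0.306% higher in A431 and 0% in CAL27. Of the plasminogen system, in which urokinase acts, ANXA2 and S100A10, which together bind plasminogen at the cell surface, are described here. ANXA2 knockouts fell in CAL27 tumors (-0.99, limma adjusted p = 0.0067) and rose in SCC13 tumors (1.45, limma adjusted p = 0.00507), and the difference of 2.44 between these lines passed (limma adjusted p = 0.000581). S100A10, the partner of ANXA2, passed in no group. Relative to the median gene, PLAU itself passed in the tumors of none of the lines.

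Among serine protease inhibitors, knockouts of SERPINB1, an intracellular inhibitor of leukocyte elastase, rose in the tumors of CAL27 (1.67, limma adjusted p = 0.000563) and SCC13 (1.33, limma adjusted p = 0.0125). In cultures, relative to the median gene, SERPINB4 rose in A431 (0.77, limma adjusted p = 0.0215) and SERPINB3 in CAL27 (0.42, limma adjusted p = 0.0366). Both encode squamous cell carcinoma antigens. Of 4 cystatins, inhibitors of cysteine proteases such as cathepsin V, CSTA and CSTB were measured. CSTA rose in CAL27 cultures (0.41, limma adjusted p = 0.0366) and CAL27 tumors (1.04, limma adjusted p = 0.0352), and CSTB passed in no group. Of 42 other proteases only CTSC and HTRA1 were in the tables. CTSC, which activates granule serine proteases, rose in A431 tumors (0.76, limma adjusted p = 0.025), and HTRA1 passed in no group.

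Of 39 listed matrix proteins and matrix-bound factors, 13 were measured. In A431 tumors 2 fell and 0 rose, DCN (decorin, -0.57, limma adjusted p = 0.043) and IGFBP6 (-0.64, limma adjusted p = 0.0431). In CAL27 tumors LAMA3 fell (-1.26, limma adjusted p = 0.0174), while CYR61 (1.08, limma adjusted p = 0.018) and LAMB3 (0.82, limma adjusted p = 0.0408) rose. LAMA3 and LAMB3 are chains of the same laminin, laminin-332. In SCC13 tumors CYR61 (1.72, limma adjusted p = 0.00163) and IGFBP7 (1.22, limma adjusted p = 0.0199) rose and 0 fell. Over all genes, 11.9% fell and 7.95% rose in A431 tumors, 22% and 18.7% in CAL27 tumors, and 23.9% and 23.5% in SCC13 tumors. In cultures none of the 13 passed by limma in either line, against 13.5% of all genes in A431 and 23.5% in CAL27.

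AP-1 factors, which bind the promoters of MMP1, MMP10 and PLAU, included several genes whose knockouts fell in CAL27 and SCC13 tumors relative to the median gene. Of 22 listed AP-1, ETS and RUNX regulators, 10 were measured. In CAL27 tumors 4 fell, FOSL1 (-2.74), JUNB (-1.94), JUN (-1.94) and ATF3 (-1.22), with limma adjusted p-values of 4.48e-05, 0.000554, 0.000516 and 0.0408. In SCC13 tumors JUNB (-2.92), FOSL1 (-2.41) and FOS (-2.21) fell and JUND rose (1.57), with limma adjusted p-values of 5.21e-08, 8.59e-06, 3.46e-05 and 0.00464. Over all genes, 22% fell in CAL27 tumors, and 23.9% fell and 23.5% rose in SCC13 tumors. FOSL1 and JUNB also fell in both culture groups, by limma: -0.99 and -1.11 in A431, -1.24 and -0.76 in CAL27. Of all genes, 11.3% fell in A431 cultures and 18.7% in CAL27 cultures. In A431 tumors 0 of the 10 fell, where 11.9% of all genes did, so the count was near the share of the library. FOSL1 stood there at -0.47 (limma adjusted p = 0.151) and JUNB at 0.10 (limma adjusted p = 0.786). The ETS factor ELF2 rose in A431 tumors (0.74, limma adjusted p = 0.0277) and CAL27 cultures (0.55, limma adjusted p = 0.0487). Lower in SCC13 than in A431 tumors were JUNB (-3.02), FOS (-1.95) and FOSL1 (-1.94), with limma adjusted p-values of 0.000237, 0.0146 and 0.0272. Against CAL27 tumors, FOS was lower in SCC13 (-2.13, limma adjusted p = 0.00396) and JUN higher (2.45, limma adjusted p = 0.00135). Of all genes, 10.7% were lower against A431, and 7.95% lower and 9.79% higher against CAL27. The list's medians, -0.02, -0.04 and 0.08 in A431, CAL27 and SCC13 tumors, were close to the library's.

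Surface proteins known to bind TIMPs, urokinase receptor complexes or their partners included large losses. Of 10 listed, CD151, EGFR, ITGAV and ITGB1 were measured. All 4 fell in A431 tumors, from -2.26 for ITGB1 to -1.15 for ITGAV, where 11.9% of all genes fell. In CAL27 tumors 3 fell, ITGB1 (-3.67), EGFR (-2.98) and CD151 (-1.40), and in SCC13 tumors EGFR (-3.10) and ITGB1 (-2.73) fell. Of all genes, 22% fell in CAL27 tumors and 23.9% in SCC13 tumors. The medians of the 4 genes were -1.95, -2.19 and -1.31 in A431, CAL27 and SCC13 tumors. In SCC13 tumors CD151 (0.12) and ITGAV (0.37) did not pass. CD151 was higher in SCC13 than in A431 tumors by 2.26 (limma adjusted p = 0.0243). EGFR also fell in A431 cultures (-1.25, limma adjusted p = 0.0104), where 11.3% of all genes fell. In CAL27 cultures, where 18.7% of all genes fell, none of the 4 passed, with EGFR at -0.85 (limma adjusted p = 0.0609). Between tumors and cultures none of the 4 passed by limma in A431 or CAL27, where 0% of all genes did.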

How the data were processed

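The authors deposited 1 table of log fold changes per gene for each line and setting. The unit is a log ratio of unstated base, not a count or a signal, and the file headers name no columns. Bowtie2 is named per the submitters' processing notes. Its version, the pseudocount, how guides were combined into genes and any genome build: not given in the sources used here. No coordinates or sequences are therefore printed. Value columns equal the later samples of each group in number but carry no replicate numbers, so a value column stands for 1 tumor or culture. Columns were centred on their median over 327 genes. Each table was fitted with limma 3.58.1 in R 4.3.3 (intercept, eBayes, Benjamini-Hochberg at 0.05). Tumors and cultures, and lines, were compared in joint fits that assume the same log base and guide summary in the tables. An exact two-sided sign-flip test was run per tumor table. The floor was taken as differences between columns shared to 6 decimals by at least 4 genes. Fits were tested on simulated data. Alternatives were the deposited scale, scaling by standard deviation, array weights, robust eBayes, separate spreads, floor values left out and leaving out single columns. The members and the lists were chosen with earlier results of these data known. All members are named in each group, and from each list the genes past the threshold, at most 4 per comparison. Counts and medians of the plasminogen and serine protease inhibitor lists, and 1 gene of theirs, are not reported here.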

Additional observations from a re-analysis of the deposited data

Results flagged for a closer look

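PLAU knockouts in value column 7 of the A431 tumors stood at -1.92, far below the other 7 tumors of the group, the next of which stood at -0.34. In value column 6 of the CAL27 tumors PLAU stood at -2.85, against -1.29 in the next lowest of 10. The CAL27 flag was at the edge, with Dixon's ratio of gap to range at 0.466 and a critical value of 0.466. Chance alone marks about 1 in 20 groups, and the lowest and highest tumor of each member in A431 and CAL27 were looked at. Without these tumors the PLAU means were 0.19 in A431 and -0.33 in CAL27, and PLAU still passed in neither line by limma.

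The remaining results concern differences between lines. TIMP3 differed among tumors of the 3 lines (limma adjusted p = 0.0167), between SCC13 and A431 (limma adjusted p = 0.0386) and between SCC13 and CAL27 (limma adjusted p = 0.0206). PRSS23 differed among the 3 lines (limma adjusted p = 0.0472) and between SCC13 and CAL27 (limma adjusted p = 0.0401). Against the non-targeting guides the median gene of the SCC13 tumors ran from -2.67 to 0.53, a range that covers those of A431 and CAL27. Their standard deviation over genes, 1.89 to 2.87, exceeded that of each A431 tumor and of most CAL27 tumors (1.09 to 2.23), and they grew in another mouse strain. The part of these in the differences was not tested.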

How the results depend on the processing

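No paired analysis was possible because the value columns carry no replicate numbers. For the 7 members in 12 comparisons, robust eBayes moved 0 of 84 results, array weights 3, leaving out floor values 2, scaling by standard deviation 6 and the deposited scale, relative to the non-targeting guides, 29. On the deposited scale the members lower numbered 3 in CAL27 tumors (50.2% of all genes), 5 in SCC13 tumors (67.3%), 3 in A431 cultures (41.6%) and 6 in CAL27 cultures (89.6%). Those higher in SCC13 tumors numbered 0 (3.98%). In the comparisons of lines that scale gave 2 lower (37%) and 0 higher members (1.53%) for SCC13 against A431. Against CAL27 it likewise gave 2 lower (20.8%) and 0 higher (3.67%). On that scale the sign differed in 32 of the 84 results. Among members called on either scale it did so for PRSS23 in CAL27 tumors (-0.80), for MMP1 (-1.14), MMP10 (-1.08), PLAU (-1.38) and PRSS23 (-0.008) in SCC13 tumors, and in CAL27 cultures for MMP1 (-0.39), MMP10 (-0.40), PLAU (-0.48), PRSS23 (-0.41), CTSV (-0.46) and TIMP3 (-0.34). Over all genes, that scale raised the lower calls in SCC13 tumors from 78 to 220 and in CAL27 cultures from 61 to 293.

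TIMP1 in A431 tumors was lost with array weights (-0.61) and in the exact sign-flip test, leaving 0 members lower in each (9.17% and 0% of all genes). With floor values left out, 0 members were lower in SCC13 tumors (7.65% of all genes) and 1, TIMP1, was higher in CAL27 cultures (9.48%). Scaling by standard deviation gave 1 member, CTSV, among the 3 lines (limma adjusted p = 0.0355, 26.3% of all genes), with TIMP3 and PRSS23 lost. It gave 1 lower (CTSV) and 0 higher for SCC13 against A431 (5.81% and 7.65% of all genes), and 1 higher (TIMP3) against CAL27 (8.87%). Array weights and separate spreads each gave 2 members higher in SCC13 than in A431 (14.4% and 15.6% of all genes) and 1 lower than in CAL27 (7.95% and 8.56%). Leaving out single tumors gave 0 to 1 members lower in A431 tumors, 0 to 1 higher in CAL27 tumors, 1 to 3 among the 3 lines, 0 to 1 higher for SCC13 against A431, and 0 to 1 lower and 0 to 2 higher against CAL27. Of all 327 genes the same fits called, in that order, 24 to 33, 53 to 62, 71 to 97, 26 to 37, 22 to 30 and 24 to 41. With 1 of 2 cultures left out, a culture table alone has no residual degrees of freedom, so no test was run.

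The protease minus inhibitor difference in CAL27 cultures was -0.29 after scaling, -0.0856 without TIMP1 and -0.25 without TIMP3. In A431 cultures it was -0.38 without TIMP1 and 0.32 without TIMP3. In tumors it was -0.10 (A431) and -1.49 (SCC13) without TIMP1, and 1.13 and 2.13 without TIMP3. The causes of these changes were not tested. Depth is unknown, so what it limits cannot be stated.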

Other observations

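The members' values were also compared with each other across tumors of a line. Of 63 relations (21 pairs in 3 lines), 0 passed Benjamini-Hochberg adjustment for Pearson's r or Spearman's rho, and 3 had an unadjusted permutation p under 0.05 for r. The strongest was between PRSS23 and TIMP1 in SCC13 (n = 16): r = -0.676 (permutation p = 0.00448, adjusted p = 0.282), rho = -0.588 (permutation p = 0.0192, adjusted p = 0.49), and r = -0.591 without the 2 tumors farthest from the PRSS23 median. MMP10 and PLAU had r = -0.621 in CAL27 tumors (n = 10, permutation p = 0.0458, adjusted p = 0.522) and r = 0.497 in SCC13 tumors (n = 16, permutation p = 0.0506, adjusted p = 0.522). Floor values entered these SCC13 relations, for TIMP1 in 8 tumors, PLAU in 4 and MMP10 in 2. Their part in r was not tested.

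Over all 38 cultures and tumors, the knockout whose scaled values followed TIMP1 most closely was GPNMB (r = 0.615), and for TIMP3 it was XBP1 (r = 0.587). PRSS23 was nearest to KRT15 (r = 0.56), CTSV to SMARCA4 (r = 0.553), MMP10 to DSG1 (r = 0.508), PLAU to KRT6A (r = 0.43) and MMP1 to ARL6IP1 (r = 0.382). These are descriptions, since tumors of 1 line share the same initial cells and each gene was picked from all others for its r. SCC13 floor values of TIMP1, CTSV, PLAU and MMP10 also entered r, and their part in it was not tested.

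In the RefSeq annotation TIMP1 overlaps SYN1, TIMP3 overlaps SYN3 and PRSS23 overlaps FZD4. The guides themselves were not analysed here, and whether any touched these neighbours was not tested.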
